A study of Mus musculus with 28 samples.

Results

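The replication-dependent histone genes encode the linker histone H1 and the core histones H2A, H2B, H3 and H4 that package newly copied DNA. They were taken as all genes of the mRNA table whose symbol starts with Hist1h, Hist2h, Hist3h or Hist4h, apart from the testis genes Hist1h1t, Hist1h2ba and Hist1h2aa, which gave 67 of 34839 genes. The 67 comprise 5 H1, 19 H2A, 18 H2B, 12 H3 and 13 H4 genes. In RefSeq, 52 of them lie in the large cluster on chromosome 13, 10 on chromosome 3 and 3 on chromosome 11, Hist4h4 lies alone on chromosome 6, and Hist1h2al lies apart on chromosome 13. The data go against the label for 3 of the 67, since RefSeq annotates Hist1h2aj, Hist1h2al and Hist3h2bb-ps as pseudogenes.

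The study examined the domains of PRDM9 in mouse meiosis, an enzyme that methylates histone H3 and thereby marks where recombination begins. Whole-testis mRNA was sequenced from 2 libraries of Prdm9 knockout (KO) mice, 2 of Hop2 KO mice and 1 of adult wild type (WT), all of strain C57BL/6 per the labels. Hop2, with the gene symbol Psmc3ip, encodes a partner of the recombinases in strand exchange. Meiotic DNA breaks were mapped in 1 testis library of C57BL/6 mice with the genotype Prdm9 (K/K), whose PRDM9 lacks the KRAB domain, by single-stranded DNA sequencing (SSDS). The ages of the KO and Prdm9 (K/K) mice, the exons removed in the KO alleles and whether libraries came from separate animals are not given in the labels. The p-values therefore measure only how these libraries vary, and that variation may be technical.

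Replication-dependent histone genes are known for being transcribed in S phase from clusters bound by NPAT, and for mRNAs that end in a conserved stem-loop instead of a poly(A) tail. The stem-loop is bound by SLBP and the end is cut with the U7 snRNP, of which LSM10 and LSM11 are subunits. Some of these genes also give polyadenylated transcripts in cells that no longer divide. In the male germ line their products are joined or replaced by testis variants, and in spermatids most histones give way to transition proteins and protamines.

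Values are the authors' rescaled TPM, an abundance per transcript length whose columns summed to between 825459 and 953598 in the KO libraries and to 1622660 in WT. The read depth behind them is unknown. The labels do not say whether poly(A) tails were selected, and the values may hold only part of the histone mRNA. The 2 Prdm9 KO libraries had Prdm9 values of 4.73 and 5.93, against 10.7 and 15.03 with Hop2 knocked out and 6.20 in WT, and since a gene total can include exons outside a deletion it does not check the Prdm9 labels. Psmc3ip was 3.51 and 5.06 in Hop2 KO, below 22.8 and 26.4 in Prdm9 KO and 197 in WT. The markers of spermatids (6 genes, among them Prm1 and Tnp1) summed to 113179 in WT and to between 0.886 and 29.1 in the KO libraries, where Prm2 was listed at 0 in 1 library. Those of pachytene spermatocytes (5 genes) summed to 7856 against 7.31 to 14.7, and none of them was at 0. All 11 were called lower in both KO genotypes, whereas 8 of 9 spermatogonial markers were called higher and the ninth, Gfra1, was called lower in Hop2 KO (-0.86, adjusted p = 0.0072 by limma). Many markers of somatic cells were called higher as well. Each knockout had 7 of 8 for Sertoli cells, 6 of 7 for Leydig cells and 5 of 5 for macrophages. Their median log2 differences were 2.23, 2.78 and 2.96 for Prdm9 KO and 2.46, 2.69 and 3.13 for Hop2 KO. For Prdm9 KO, 1 of 4 peritubular myoid, 2 of 4 endothelial and 1 of 5 red blood cell markers were called higher. For Hop2 KO these counts were 3, 3 and 0. Of 5 markers of dividing cells, Ccnb1 and Birc5 were called lower in each knockout, and only Cdk1 under Hop2 KO was called higher. The 3 general germ cell markers were mixed, with Dazl called higher and Ddx4 and Mael lower in each knockout. Summed, the Sertoli markers were 1628 in WT and 5993 to 10091 in the KO libraries, the Leydig markers 5884 against 26004 to 73273, and the macrophage markers 47.2 against 333 to 585. In bulk tissue fewer cells of a type and less RNA per cell cannot be told apart, and the part of these shifts in the histone values below was not tested.

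The histone genes summed to 3128 rescaled TPM in WT and to 670 and 542 in Prdm9 KO and 701 and 744 in the Hop2 KO libraries. Most of the WT sum came from 2 neighbouring H2A genes on chromosome 3, Hist2h2aa1 and Hist2h2aa2, which together reached 2432 in WT and between 267 and 420 in the KO libraries. Without them the sum was 697 in WT and 275 to 332 in the KO libraries. As a share of all values in the column, the 67 genes took 0.193% in WT and 0.0656% to 0.0782% in the KO libraries. Without those 2 genes the shares were 0.0429% and 0.0333% to 0.0381%, so most of the difference in the sum of the other 65 genes was absent on this scale. With columns rescaled to 1000000, single genes among the 65 still differed in both directions. In Prdm9 KO the log2 differences were then -5.52 for Hist1h2bp and 3.21 for Hist1h1c. The H1 class went the other way from the total, with a sum of 9.26 in WT and 44.3 to 56.2 in the KO libraries. H3 genes summed to 73.1 in WT against 20.7 to 29.1, and H4 genes to 181 against 28.4 to 39.7.

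**Figure D1:**
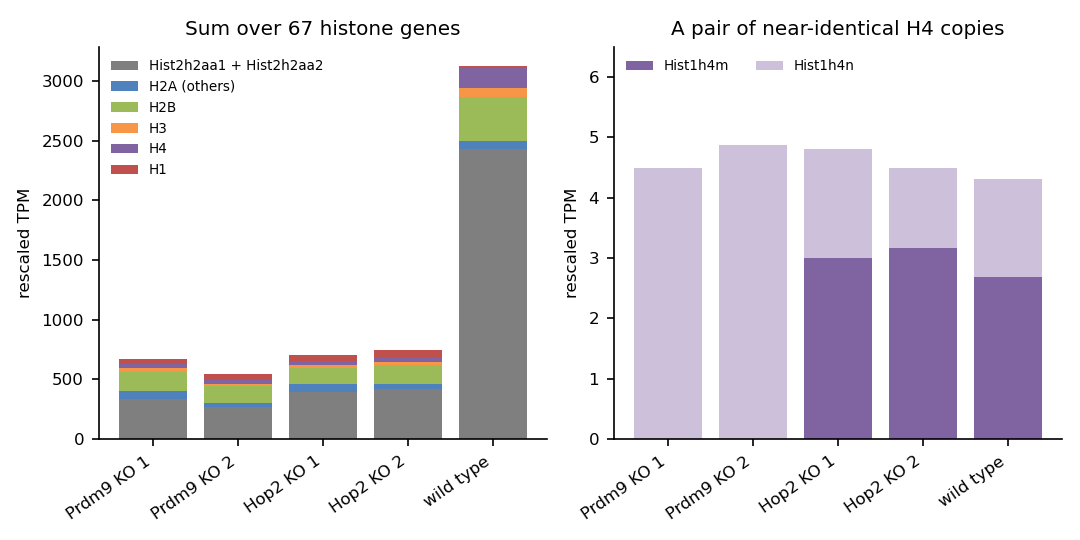
Left, the rescaled TPM of the 67 histone genes summed by class in each library, with Hist2h2aa1 and Hist2h2aa2 apart from the other H2A genes; WT reached 3128 and the 4 KO libraries 542 to 744. Right, the rescaled TPM of the H4 copies Hist1h4m and Hist1h4n, stacked; their total lay between 4.31 and 4.87 in all 5 libraries while the split between them differed.

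Expression was concentrated in few genes. In WT 16 of the 67 reached 10 rescaled TPM, and 8 did so in all 4 KO libraries, whereas 21 stayed under 1 in every library and Hist1h2ao was listed at 0 in all 5. Against WT, 42 genes whose 5 libraries averaged 1 or more were tested and 25 were not. By the mean over all 5 libraries, which WT can carry, the highest genes of their class were Hist1h1c for H1, Hist2h2aa2 for H2A, Hist1h2bc for H2B, Hist1h3a for H3 and Hist1h4a for H4. A fold or log2 difference in what follows is on the log2(value + 1) scale where a standard error (SE) is given, which understates the change of low genes.

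**Figure D2:**
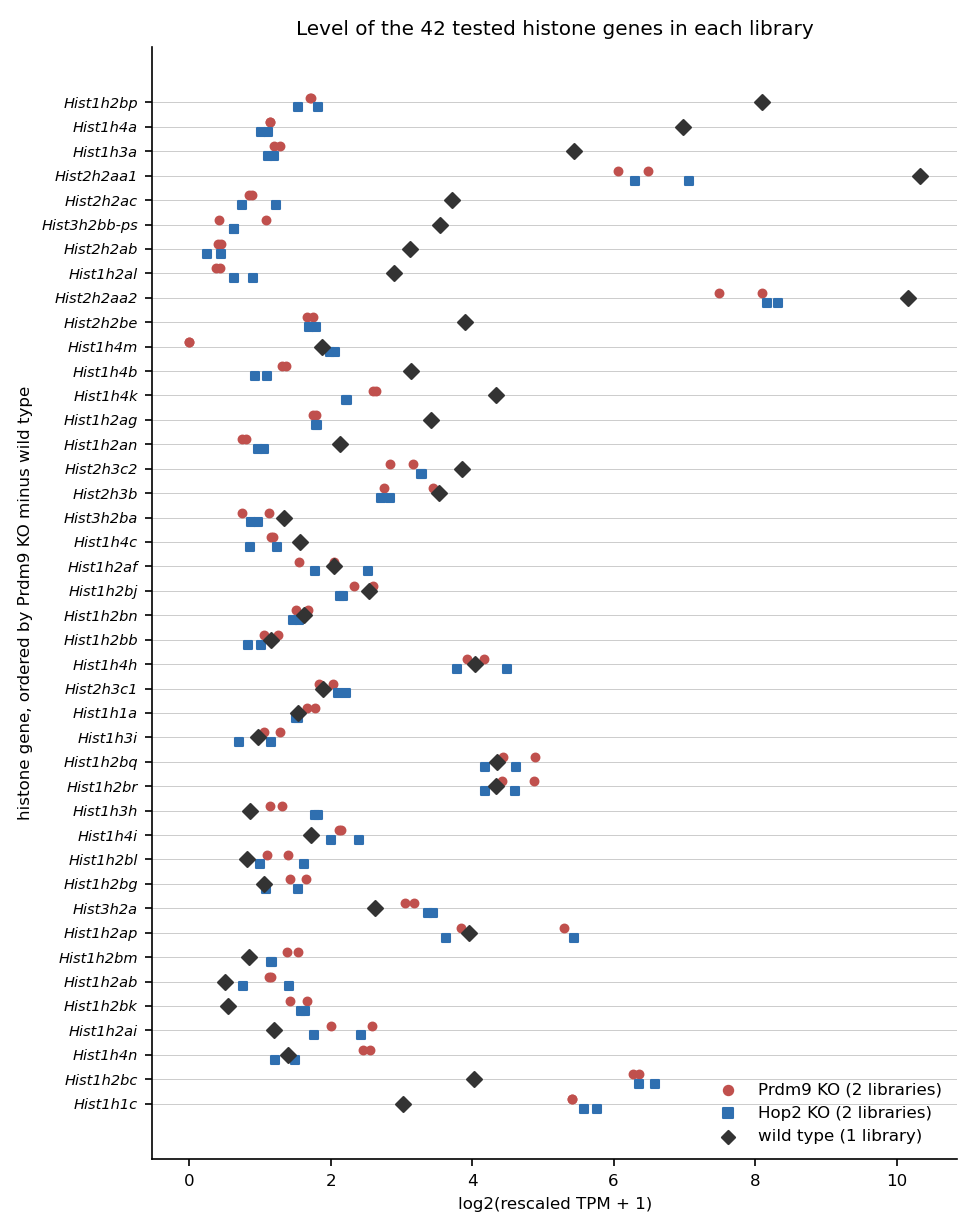
Level of each of the 42 tested histone genes as log2(rescaled TPM + 1), one symbol per library, ordered by the difference between Prdm9 KO and WT. WT lies to the right of all 4 KO libraries for 18 genes, to the left for 11 and within their range for 13.

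In both knockouts a few H2A, H2B, H3 and H4 genes were far below WT while Hist1h1c and Hist1h2bc were far above it. In Prdm9 KO 16 of 42 histone genes fell and 6 rose at an adjusted p under 0.05, where 39.4% of all genes tested fell and 34.6% rose. The other 20 passed in neither direction, whereas 74.1% of all genes passed. In Hop2 KO 14 fell and 6 rose, against 39.5% and 35% of all genes, and 22 did not pass, whereas 74.5% of all genes did. Of the 42, 14 were called lower in both knockouts, 5 higher in both and 19 in neither. Both comparisons use the same WT library, so they do not support each other, and its spread is assumed to equal that of the knockouts. The median log2 difference of the histone genes was -0.05 in Prdm9 KO and -0.08 in Hop2 KO, beside -0.08 and -0.06 over all genes. The count of falling genes is thus near the background in both comparisons, and that of rising genes is below it. The minimum mean of 1 itself selects some of these genes. In each knockout 5 of the falling genes (Hist1h2al, Hist1h2an, Hist2h2ab, Hist2h2ac and Hist3h2bb-ps) had a KO mean under 1 and were tested only because of WT, and 3 of the rising ones (Hist1h2bk, Hist1h2bm and Hist1h3h) had a WT value under 1. Of the 30 histone genes with both at 1 or more, 11 fell and 3 rose in Prdm9 KO and 9 and 3 under Hop2 KO, where 33.5% of all such genes fell and 37.1% rose in the former and 33.6% and 37.6% in the latter.

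The split depends on how the columns are scaled. With quantile normalization 18 histone genes rose and 15 fell in Prdm9 KO and 17 and 13 under Hop2 KO, and with columns rescaled to 1000000 the counts were 18 and 15 of 43 and 13 and 14. Over all genes 49.5% rose and 30.6% fell with quantile normalization for Prdm9 KO, against 49.3% and 30.8% for Hop2 KO. With rescaled columns these shares were 51.7% and 26.6%, then 49.7% and 27.9%. These scalings moved the median over all genes from -0.08 to 0.58 and 0.77 in Prdm9 KO and from -0.06 to 0.59 and 0.68 in Hop2 KO. Median-ratio scaling moved it to 0.18 and 0.19 and gave 8 rising genes in each knockout with 15 and 14 falling, where 39.2% and 39.5% of all genes rose and 35.1% fell in each. Of the histone genes with no call in Prdm9 KO on the deposited scale, 12, 12 and 2 were called higher under quantile, rescaled and median-ratio scaling, and in Hop2 KO 11, 7 and 2. Statements that a gene passed no test in what follows refer to the deposited scale. WT lay above all 4 KO libraries in 18 of the 42 genes and below all 4 in 11, where 46.9% and 44.2% of all genes tested did so.

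Hist1h2bp, an H2B gene, had the steepest fall. It was 274 in WT, 2.31 and 2.26 in Prdm9 KO and 1.90 and 2.55 in the Hop2 KO libraries. The WT library thus stood 122 times above the KO mean, and no KO library came near it. The log2 difference was -6.39 (SE 0.19, adjusted p = 0.000124) in Prdm9 KO and -6.42 (SE 0.19, adjusted p = 0.000123) in Hop2 KO. The transcript table holds 2 transcripts of Hist1h2bp, and in WT 96.2% of the gene's value, 264 rescaled TPM, sat in ENSMUST00000110473. This transcript took 22.3% to 40.0% of the gene in the KO libraries, at 0.504 to 0.892 rescaled TPM. The other, ENSMUST00000102982, was 10.4 in WT and 1.14 to 1.76 in the KO libraries. RefSeq gives the gene a span of 14079 bases, where most of the histone genes are short and 7 of the 67 exceed 1 kb.

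Among H4 genes, Hist1h4a was 126 in WT and 1.202, 1.213, 1.017 and 1.175 in the KO libraries, with log2 differences of -5.84 in Prdm9 KO and -5.92 in Hop2 KO (SE 0.12 in both). The 4 KO values lay close together, and WT was 109 times their mean. Hist1h4k was 19.2 in WT, 5.03 and 5.25 in Prdm9 KO and 3.66 and 3.70 in the Hop2 KO libraries, and Hist1h4b was 7.76 in WT against 0.902 to 1.58. Both fell in each knockout, with log2 differences of -1.72 and -1.79 in Prdm9 KO and -2.11 and -2.12 under Hop2 KO. Hist1h4h, at 15.4 in WT and 12.8 to 21.5 in the KO libraries, and Hist1h4c and Hist1h4i passed no test, though Hist1h4i was called higher in each knockout under quantile normalization (adjusted p = 0.0073 and 0.0054) and rescaled columns (0.012 and 0.013). Hist1h3a, with the highest H3 mean through its WT value, was 42.3 in WT and 1.16 to 1.44 in the KO libraries, a log2 difference of -4.19 in Prdm9 KO and -4.28 in Hop2 KO (SE 0.12 in both). Hist2h3c2 was 13.5 in WT and 6.18 to 8.84 in the KO libraries and passed in Prdm9 KO (-0.86, adjusted p = 0.024) but not in Hop2 KO (-0.57, adjusted p = 0.067). The first call was lost without Prdm9 KO replicate 2 or either Hop2 KO library (adjusted p = 0.082, 0.059 and 0.058) and under quantile, rescaled and median-ratio scaling.

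Of the 12 H2A genes tested, 7 fell in each knockout, where 39.4% of all genes fell in Prdm9 KO and 39.5% in Hop2 KO. Of these 7, Hist2h2ab, Hist2h2ac, Hist1h2an and Hist1h2al were tested only because of their WT value. Hist2h2aa1 was 1291 in WT, 65.7 and 88.3 in Prdm9 KO and 77.8 and 132 in the Hop2 KO libraries. Its near copy Hist2h2aa2 was 1141 in WT, 272 and 179 in Prdm9 KO and 320 and 288 in the Hop2 KO libraries. WT was above every KO library in each, with log2 differences of -4.06 (SE 0.41) and -2.37 (SE 0.30) in Prdm9 KO and -3.66 and -1.91 under Hop2 KO. Their promoter windows are 95.8% identical over 260 bases. These windows lie mostly before the transcript, and whether reads of the mRNAs of Hist2h2aa1 and Hist2h2aa2 can be told apart was not tested. Without Hop2 KO replicate 2 the call of Hist2h2aa2 in Hop2 KO was lost (adjusted p = 0.0501). Their sum gave -3.01 (SE 0.20) in Prdm9 KO and -2.57 (SE 0.20) in Hop2 KO. The other H2A genes that fell in each knockout were lower throughout. Hist2h2ac was 12.1 in WT and 0.684 to 1.34 in the KO libraries, Hist2h2ab was 7.72 against 0.192 to 0.373, and Hist1h2ag was 9.66 against 2.38 to 2.50. Hist1h2an (3.37 against 0.672 to 1.09) and the pseudogene Hist1h2al (6.45 against 0.302 to 0.865) made up the 7, the former with no call in Hop2 KO under quantile normalization (adjusted p = 0.060). Hist3h2a passed only as a rise in Hop2 KO, at 5.20 in WT, 8.04 and 7.28 in Prdm9 KO and 9.41 and 9.95 in the Hop2 KO libraries, with an adjusted p of 0.054 in Prdm9 KO and 0.015 in Hop2 KO. The latter rose to 0.0511 and 0.0505 without Prdm9 KO replicate 1 or 2. In Prdm9 KO Hist3h2a was called higher under quantile, rescaled and median-ratio scaling (adjusted p = 0.0037, 0.0041 and 0.021 by limma).

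Of all genes, 34.6% rose and 39.4% fell in Prdm9 KO, and 35% and 39.5% in Hop2 KO. H2B genes went in both directions, with 3 of 14 higher and 3 lower in each knockout. Besides Hist1h2bp, the falling ones were Hist2h2be, at 13.9 in WT and 2.16 to 2.47 in the KO libraries, and the pseudogene Hist3h2bb-ps, at 10.7 against 0.337 to 1.12. Hist1h2bc rose from 15.3 in WT to 80.8 and 76.6 in Prdm9 KO and 80.7 and 95.3 in the Hop2 KO libraries, a log2 difference of 2.29 and 2.45 (SE 0.14 in both). Hist1h2bk was 0.463 in WT and 1.68 to 2.19 in the KO libraries, and Hist1h2bm 0.797 against 1.23 to 1.91. The KO libraries were above WT without overlap in these 3 genes, though the last pair sat near 1 rescaled TPM. The call of Hist1h2bm in Hop2 KO (0.31, adjusted p = 0.041) was lost without either Hop2 KO library, at 0.11 in each case.

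Linker histones were few in number and carried by 1 gene. Hist1h1c, which encodes the H1.2 subtype, was 7.12 in WT, 41.4 and 41.5 in Prdm9 KO and 46.7 and 53.6 in the Hop2 KO libraries. The KO mean was 6.44 times WT with no overlap, and the log2 difference was 2.39 (SE 0.13, adjusted p = 0.000609) in Prdm9 KO and 2.65 (SE 0.13, adjusted p = 0.000457) in Hop2 KO. The medians of the Sertoli, Leydig and macrophage markers given above were of similar size. Those of the peritubular myoid, endothelial and red blood cell markers were smaller, between 0.81 and 1.57 over both knockouts. The median of the 9 spermatogonial markers was 1.78 in Prdm9 KO and 1.88 in Hop2 KO. The part of these cell types in the rise of Hist1h1c and Hist1h2bc was not tested. Hist1h1a stayed between 1.85 and 2.45 in all 5 libraries and passed neither test. Under quantile, rescaled and median-ratio scaling it was called higher in Prdm9 KO, at 0.91, 0.77 and 0.36 (adjusted p = 0.0037, 0.0046 and 0.038). Its difference in Hop2 KO was -0.02 and turned to 0.71, 0.48 and 0.15, of which the first and second passed (adjusted p = 0.0084 and 0.019). Hist1h1b was 0.0244 in WT and 0.119 to 0.299 in the KO libraries, Hist1h1e 0.119 against 0.402 to 0.510, and Hist1h1d 0.0986 against 0.0366 to 0.0443. These 3 were too low to be tested. Among H3 genes Hist1h3h rose, from 0.819 in WT to 1.497 and 1.201 in Prdm9 KO and 2.42 and 2.54 in the Hop2 KO libraries, and the call in Hop2 KO held under every alternative in which it was tested. Its adjusted p of 0.046 in Prdm9 KO rose to 0.11, 0.086 and 0.085 without Prdm9 KO replicate 1 or without Hop2 KO replicate 1 or 2, in that order.

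**Figure D3:**
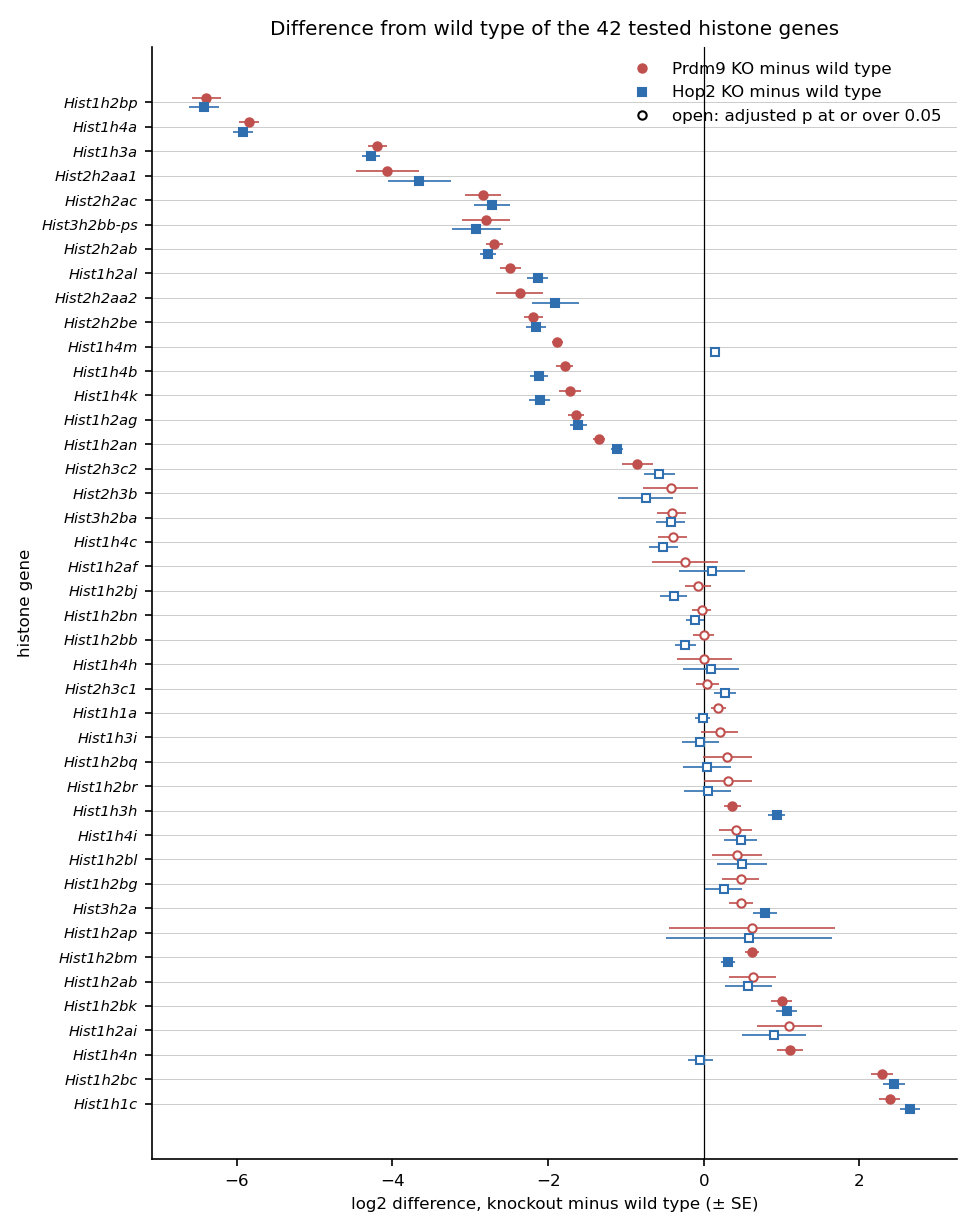
Log2 difference from WT of the 42 tested histone genes on the log2(rescaled TPM + 1) scale, with the SE of the fit as bars, for Prdm9 KO (circles) and Hop2 KO (squares). Filled symbols passed an adjusted p of 0.05; Hist1h2bp lies at -6.39 and -6.42 and Hist1h1c at 2.39 and 2.65, and Hist1h4m and Hist1h4n are the pair whose symbols for the knockouts lie furthest apart.

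The calls are given by cluster, beside all genes, of which 39.4% fell and 34.6% rose in Prdm9 KO while 39.5% and 35% did so under Hop2 KO. On chromosome 3 none of the 8 genes tested rose and 6 fell in Prdm9 KO and 5 in Hop2 KO, with medians of -2.28 and -2.03; Hist2h2ab and Hist2h2ac are among those tested only because of WT. On chromosome 13 the main cluster had 6 rising and 8 falling genes of 30 in Prdm9 KO and 5 and 7 under Hop2 KO, with medians of 0.20 and 0.05. Whether the clusters differ was not tested. A histone gene outside the test, Hist4h4 on chromosome 6, was 3.08 in WT and 0.123 to 0.200 in the KO libraries, and it was picked out after its values had been seen.

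Promoters are shown for 2 genes that fell and 2 that rose, as the 300 bases of RefSeq (GRCm38.p6) from 250 before the annotated start, 5′ to 3′ on the gene's strand. Of the 67 genes 59 matched an entry. Capitals mark, on either strand and at any position, the TATA sequence TATAAA, the CCAAT box sequence CCAAT and the octamer ATTTGCAT. The octamer is known from H2B promoters. In Hist1h4a the TATAAA lies after the annotated start. In Hist1h2bp and Hist1h2bk it is on the other strand, nearer the start of the neighbouring H2A gene. Whether the marked stretches act in these genes was not tested. Hist1h2bp spans chr13:21787238-21787537 on the plus strand, Hist1h4a chr13:23761200-23761499 on the minus strand, Hist1h1c chr13:23738557-23738856 on the plus strand and Hist1h2bk chr13:22035571-22035870 on the plus strand.
Hist1h2bp: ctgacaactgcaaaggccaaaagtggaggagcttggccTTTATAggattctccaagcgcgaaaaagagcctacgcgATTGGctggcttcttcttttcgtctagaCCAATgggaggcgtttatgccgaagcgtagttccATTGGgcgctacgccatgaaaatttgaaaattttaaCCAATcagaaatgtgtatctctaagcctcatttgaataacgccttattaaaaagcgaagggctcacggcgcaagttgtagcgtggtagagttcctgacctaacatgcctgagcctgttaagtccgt
Hist1h4a: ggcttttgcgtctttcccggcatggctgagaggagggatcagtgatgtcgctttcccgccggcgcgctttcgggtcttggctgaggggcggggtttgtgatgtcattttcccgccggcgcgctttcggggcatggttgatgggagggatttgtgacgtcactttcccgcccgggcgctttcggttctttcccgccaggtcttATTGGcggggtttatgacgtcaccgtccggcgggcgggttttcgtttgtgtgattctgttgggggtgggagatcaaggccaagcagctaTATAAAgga
Hist1h1c: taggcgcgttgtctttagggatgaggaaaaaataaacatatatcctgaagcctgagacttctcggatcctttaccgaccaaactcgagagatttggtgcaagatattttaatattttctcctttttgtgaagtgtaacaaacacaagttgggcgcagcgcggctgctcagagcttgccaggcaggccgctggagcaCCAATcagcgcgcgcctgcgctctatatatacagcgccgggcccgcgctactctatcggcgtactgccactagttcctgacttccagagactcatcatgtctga
Hist1h2bk: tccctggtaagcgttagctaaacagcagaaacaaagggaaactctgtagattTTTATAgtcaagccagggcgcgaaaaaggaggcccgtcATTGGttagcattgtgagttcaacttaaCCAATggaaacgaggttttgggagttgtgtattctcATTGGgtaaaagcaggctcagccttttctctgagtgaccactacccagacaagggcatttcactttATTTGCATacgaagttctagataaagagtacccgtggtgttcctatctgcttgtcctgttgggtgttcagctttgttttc

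CCAAT, read on either strand, was present in 50 of the 59 histone windows (84.7%) and in 37.9% of the 27025 promoter windows of the same length. All 47 windows of H1, H2A, H2B and H3 genes held it, but only 3 of the 12 H4 windows did. TATAAA, at any position in the window, was in 33 of 59 (55.9%, all promoters 14.2%). The octamer ATTTGCAT was in 11 of 59 (18.6%, all promoters 1.75%), of which 6 are H2A and 5 are H2B genes. No motif contains another, but windows overlap. In 9 pairs an H2A and an H2B gene face away from each other with 164 to 268 bases between their starts, so part of each window is shared. The pair Hist1h2an and Hist1h2bp, 240 bases apart, fell together, from 3.37 and 274 in WT to a KO mean of 0.869 and 2.25. In the pair Hist1h2ag and Hist1h2bj, 249 bases apart, Hist1h2ag fell and Hist1h2bj was 4.81 in WT with a KO mean of 3.99 and passed no test. Of the 12 windows of genes that fell in Prdm9 KO 9 held CCAAT, as did 4 of the 5 of genes that rose.

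Prdm9 KO and Hop2 KO, which both lack normal meiotic recombination but at different steps, were then compared with each other. The only histone genes with a large difference were 2 H4 copies, Hist1h4m and Hist1h4n, and no histone gene passed. Of the 36 genes whose 4 KO libraries averaged 1 or more, 0 were called by limma, where 0.0139% of all genes were. At an unadjusted p under 0.05 there were 4, where 3.1% of all genes passed, and 17 of 36 had ranges that did not overlap, where 32.9% of all genes had. The median log2 difference was 0.05, beside -0.03 over all genes.

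Hist1h4m did not exceed 8.39e-06 rescaled TPM in either Prdm9 KO library and was 2.99 and 3.17 in Hop2 KO and 2.68 in WT. Hist1h4n was 4.50 and 4.87 in Prdm9 KO, 1.81 and 1.32 in the Hop2 KO libraries and 1.63 in WT. The libraries of the 2 genotypes did not overlap in either gene, and the differences ran in opposite directions. On the log2 scale Prdm9 KO minus Hop2 KO was -2.03 for Hist1h4m (SE 0.18, unadjusted p = 0.000114, adjusted p = 0.21) and 1.15 for Hist1h4n (SE 0.18, unadjusted p = 0.00155, adjusted p = 0.97). These genes lie in the same cluster on opposite strands, and their promoter windows are 99.7% identical over 299 bases when shifted by 1 base. They are shown for this near identity, which does not tell how alike the mRNAs are, since the windows lie mostly before the transcript. Hist1h4m spans chr13:21811496-21811795 on the plus strand and Hist1h4n chr13:21832148-21832447 on the minus strand, and capitals mark TATAAA.
Hist1h4m: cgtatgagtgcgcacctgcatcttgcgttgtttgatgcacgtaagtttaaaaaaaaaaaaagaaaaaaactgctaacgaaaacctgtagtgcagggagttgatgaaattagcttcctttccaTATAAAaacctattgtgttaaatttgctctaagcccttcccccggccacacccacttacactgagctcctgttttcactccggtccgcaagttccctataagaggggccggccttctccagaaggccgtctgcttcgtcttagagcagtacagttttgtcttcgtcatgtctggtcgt
Hist1h4n: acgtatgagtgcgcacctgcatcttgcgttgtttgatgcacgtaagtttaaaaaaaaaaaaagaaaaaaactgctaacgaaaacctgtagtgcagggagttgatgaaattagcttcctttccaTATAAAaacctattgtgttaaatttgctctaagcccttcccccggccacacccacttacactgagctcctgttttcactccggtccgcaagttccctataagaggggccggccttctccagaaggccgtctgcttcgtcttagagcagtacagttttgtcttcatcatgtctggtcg

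Summed, the copies were 4.50 and 4.87 in Prdm9 KO, 4.80 and 4.49 in the Hop2 KO libraries and 4.31 in WT. All 5 libraries thus had about the same total. The log2 difference of the sum was 0.01 (SE 0.15) between the knockouts, 0.10 (SE 0.14) between Prdm9 KO and WT and 0.09 between Hop2 KO and WT, so the calls of Hist1h4m as lower and Hist1h4n as higher in Prdm9 KO against WT were absent for their sum. Whether their mRNAs can be told apart by reads was not tested. In the authors' deposited table of gene p-values and q-values, whose compared groups are not named, Hist1h4m and Hist1h4n have the smallest p-values of the 65 histone genes listed, 0.00122 and 0.00341, with q-values of 0.998 and 1. Of the 65 in the authors' deposited table, 4 have a p under 0.05, and 3.92% of all 21276 genes do.

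Other copies behaved differently. Hist1h2bq and Hist1h2br have identical promoter windows, and their main transcripts carry the same value in every library, 28.4, 20.4, 17.02, 23.2 and 19.2 in the order Prdm9 KO, Hop2 KO and WT. They passed no test, though with rescaled columns both were called higher in Prdm9 KO (adjusted p = 0.018 and 0.017) and Hist1h2br in Hop2 KO (0.048). Hist1h2ap, an H2A gene, was 38.5 and 13.3 in Prdm9 KO, 42.4 and 11.4 in the Hop2 KO libraries and 14.5 in WT, so its KO libraries differed more within a genotype than between genotypes. The next smallest unadjusted p-values belonged to Hist1h3h, with a log2 difference of -0.57 (SE 0.17, unadjusted p = 0.023, adjusted p = 0.97 by limma), and Hist1h4k, with 0.39 (SE 0.14, unadjusted p = 0.042, adjusted p = 0.97). Hist1h2bj, Hist1h4b and Hist1h2bm gave 0.31, 0.33 and 0.30, and Hist2h2aa2, Hist3h2a and Hist1h1c gave -0.46, -0.30 and -0.27, with SE between 0.12 and 0.23 and no call. Adjusted p-values by limma were 0.97 for all of these, which does not show that the genotypes are alike.

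The genes that make and process histone mRNA moved in both directions. Of 21 tested, 11 fell and 5 rose in Prdm9 KO and 10 and 5 under Hop2 KO, with medians of -0.42 and -0.32. Over all genes 39.4% fell and 34.6% rose in Prdm9 KO, and 39.5% and 35% in Hop2 KO. Slbp, the stem-loop binding protein, was 137 in WT and 76.0 to 85.2 in the KO libraries, and Zfp473, a U7-linked factor, was 7.32 against 3.17 to 4.08; both fell. Lsm11 rose from 3.68 in WT to 10.9 to 14.5, while Lsm10 was 50.4 in WT and 35.8 to 47.5 and passed only in Prdm9 KO. Npat, the transcriptional coactivator of the clusters, was 9.84 in WT and 8.21 to 10.9, and Casp8ap2, its partner, 7.69 against 7.95 to 13.2, neither with a call. Under quantile normalization and rescaled columns the differences of Slbp and Lsm10 turned positive in both knockouts, and Lsm10 was then called higher in Prdm9 KO with rescaled columns (adjusted p = 0.017) and in Hop2 KO with both (0.038 and 0.0085). The calls of Slbp and Zfp473 were absent under both scalings, while in Prdm9 KO Npat (0.038 and 0.017) and Casp8ap2 (0.014 and 0.016) were called higher. The call of Lsm10 in Prdm9 KO (adjusted p = 0.049) was lost without any of the 4 KO libraries, at 0.068 to 0.17. That of Zfp473 was lost without either Prdm9 KO library in Prdm9 KO (0.0888 and 0.0503) and without Hop2 KO replicate 1 (0.0763) or either Prdm9 KO library (0.0527 and 0.0507) in Hop2 KO.

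Replication genes were mixed too, with 13 higher and 11 lower of 36 in each knockout. All genes were likewise mixed, with 34.6% higher and 39.4% lower in Prdm9 KO and 35% and 39.5% in Hop2 KO. Mcm2, a subunit of the replicative helicase, rose from 16.97 in WT to between 50.7 and 82.3, whereas Pcna, the sliding clamp, fell from 188 to between 103 and 127. Rrm2, Ccne2 and Chaf1b passed no test on the deposited scale. Under quantile normalization and rescaled columns Rrm2 was called higher in both knockouts (adjusted p = 0.0199 and 0.0098 for Prdm9 KO, 0.026 and 0.016 for Hop2 KO), as was Chaf1b (0.038 and 0.0053, then 0.0078 and 0.0034), and Chaf1b also passed under median-ratio scaling in Hop2 KO (0.025). Of the replication-independent histones 4 rose and 3 fell of 11 in Prdm9 KO and 4 and 1 under Hop2 KO. H1f0, the linker histone of resting cells, rose from 12.7 to between 36.7 and 51.5, alongside Hist1h1c. H3f3a was 988 in WT and 443 to 620 in the KO libraries and H3f3b 794 against 532 to 640, and both passed only in Prdm9 KO, while H2afz and H2afx passed neither test. For Pcna, H3f3b and H2afz the difference turned positive in both knockouts under quantile normalization and rescaled columns. With quantile normalization H3f3b was called higher in both knockouts (adjusted p = 0.012 in each) and H2afz in Prdm9 KO (0.048), and with rescaled columns H3f3b in Hop2 KO (0.036). H2afx was called higher in each knockout under both scalings (adjusted p between 0.0016 and 0.0053) and under median-ratio scaling in Hop2 KO (0.043). Some of these calls were near the threshold. The call of H3f3b in Prdm9 KO was lost without any of the 4 KO libraries (adjusted p = 0.063 to 0.11), that of H3f3a without Prdm9 KO replicate 2 or either Hop2 KO library (0.067 to 0.082), and that of Pcna without the same 3 in Prdm9 KO (0.067 to 0.078) and without either Hop2 KO library in Hop2 KO (0.074 and 0.12). H3f3a passed in Hop2 KO without either Prdm9 KO library (0.046 in each case), and H2afz passed as lower in Prdm9 KO without replicate 1 (0.041).

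A list of 9 histone variants, the 3 left out by the rule and 6 that its symbols do not cover, was mostly lower in the KO libraries, like the spermatid markers. H1foo, too low to be tested, was 0.160 in WT and 0.0742 to 0.332 in the KO libraries, and H3f3c passed no test. Of 8 tested, 7 fell in each knockout, with medians of -2.74 and -2.76, and 5 of the 7 (H1fnt, Hils1, H2al2a, H2afb1 and Hist1h1t) were tested only because of their WT value. Hist1h1t, the H1 of spermatocytes, was 5.72 in WT and 0.266 to 0.461 in the KO libraries, Hist1h2ba 17.03 against 5.84 to 8.45, and Hist1h2aa 14.7 against 1.53 to 3.66. The call of Hist1h2ba in Prdm9 KO was lost without Prdm9 KO replicate 2 (adjusted p = 0.060), and with rescaled columns it had no call in either knockout (0.40 and 0.051). Nasp, a histone chaperone that binds H1 and H3 with H4, fell from 512 to between 57.3 and 70.5. Of 16 chaperones 2 rose and 6 fell in Prdm9 KO and 3 and 5 under Hop2 KO. The shares over all genes were 34.6% and 39.4% in Prdm9 KO and 35% and 39.5% in Hop2 KO. No gene of these 5 lists was called between the knockouts. The direction of the lists depends on the scaling, since 18 genes of the 5 lists that fell in Prdm9 KO had no call under quantile normalization and 2 were then called higher, while 18 with no call became higher.

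SSDS recovers the single-stranded DNA beside meiotic breaks through the DMC1 protein bound to it, and in mice without working PRDM9 breaks are known to fall at promoters and other H3K4me3 sites. In Prdm9 (K/K) testis, peaks lay at the starts of many histone genes of chromosome 13 and at none on chromosome 3. The authors' list holds 17731 peaks with no score, and the fragments counted here are the 2652951 with distinct coordinates of 9397213 listed (28.2%). There is 1 library, so these are descriptions with no replicate check. Of the 59 histone genes with a known start 28 had a peak within 1 kb (47.5%), beside 35.8% of 27025 gene starts. The 28 starts shared 19 peaks, because neighbouring genes lie under the same peak, so they are not independent. Restricting to peaks with at least 23 fragments left 23 starts (39.0%, all genes 23.6%).

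The strongest of these peaks spanned chr13:21733436-21736551 at Hist1h4j, with 170 distinct fragments and rank 413 of all peaks. A peak at chr13:23759675-23765237 covered Hist1h1a, Hist1h3a and Hist1h4a, with 134 fragments and rank 796, and thus held 2 of the genes with the steepest fall from WT. One at chr13:22039848-22044464 covered Hist1h2ag, Hist1h2bj and Hist1h4i with 117 fragments and rank 1102. The peak over Hist1h2ah and Hist1h2bk had 68 fragments, that over Hist1h2ai, Hist1h2bl and Hist1h3h had 67, and that over Hist1h2ab and Hist1h3b had 52. The peak over Hist1h2an and Hist1h2bp had 32. The median over the 19 peaks was 44 fragments, beside 23 over all peaks, and it was lowest, at 7, for Hist1h3i.

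Within the chromosome 13 cluster 26 of 48 starts had a peak, and both starts on chromosome 11 did. On chromosome 3 none of 8 did, which includes Hist2h2aa1 and Hist2h2aa2. Their starts had 19 and 20 distinct fragments within 1 kb, and the 8 starts had 4 to 25, where the median gene start had 4. Of the fragments at the chromosome 3 starts 51.4% had mapping quality 0 in both mates, so that their place among copies is not known, beside 21.0% on chromosome 13 and 1.30% over all gene starts. The part of mapping in the missing peaks was not tested. Some starts without a peak held many fragments, with 92 at Hist1h4k, 53 at Hist1h1c and 51 at Hist4h4, against 137 at Hist1h4j.

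**Figure D4:**
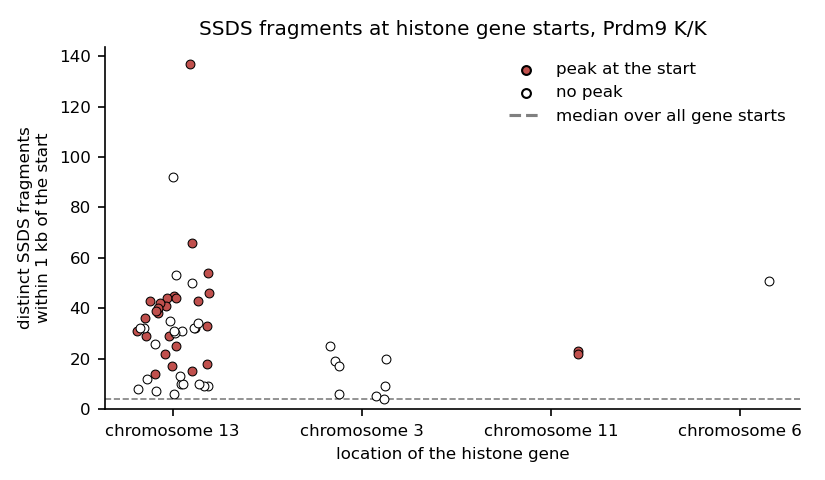
Distinct SSDS fragments within 1 kb of each of the 59 histone gene starts in Prdm9 (K/K), by location, with small random sideways shifts. Filled points have a peak; chromosome 13 reaches 137 fragments, chromosome 3 stays at 25 or below with no peak, and the dashed line is the median of 4 over all gene starts.

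The 28 genes with a peak had a median of 0.839 rescaled TPM in WT and the 31 without one 2.68, and 12 and 20 of them reached 1. By the mean of the KO libraries the medians lay closer together, at 1.12 with a peak and 1.54 without. Whether the groups differ was not tested. Around a break, SSDS fragments of opposite strands lie on opposite sides. A gene counted as having a peak if any of its annotated starts had one. The profiles use 1 start per gene, which need not be the start with the peak. For histone genes with a peak, 20.9 fragments per start on the gene's strand lay within 2 kb upstream and 7.43 downstream. The opposite strand had 9.93 upstream and 20.2 downstream. At histone starts without a peak the same values were 13.1 and 6.16, and 5.81 and 14.6. All gene starts with a peak had 19.5 and 7.28, and 5.18 and 23.4. The opposite strand upstream thus held more fragments per start at histone starts with a peak than at starts with a peak in general, a difference that was not tested. Where starts lie close together the same fragments are counted for each, in opposite orientation where the genes face away from each other. The part of this in the difference was not tested.

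**Figure D5:**
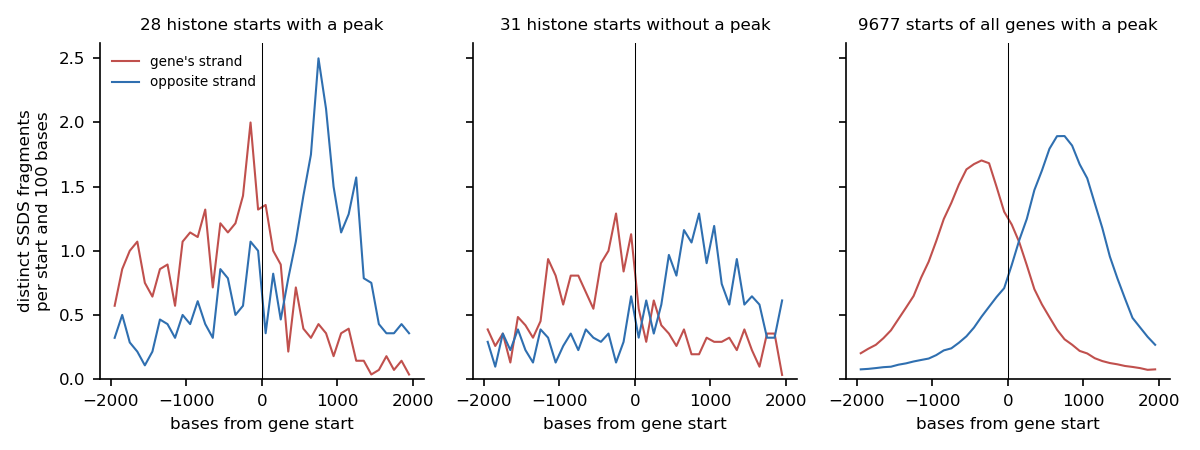
Distinct SSDS fragments per start in bins of 100 bases against the distance from the gene start in bases, upstream negative, for fragments on the gene's strand and on the opposite strand. Summed over 2 kb, the gene's strand led upstream and the opposite strand downstream in all 3 panels. These sums were 20.9 and 20.2 at the 28 histone starts with a peak and 13.1 and 14.6 at the 31 without. In the first bin after the start the gene's strand still led in each panel.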

How the data were processed

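The 5 testis mRNA libraries and the SSDS library of 28 samples were used. Per the submitters' processing notes the authors used CASAVA, kallisto and sleuth for mRNA and CASAVA and MACS2 2.1.0.20150420 for SSDS, with builds GRCm38 and mm10. The authors' deposited gene values are a rescaled TPM, a signal with no depth, in which 0 columns were left unused. A table of the authors' own p-values and q-values per gene, deposited by them, was read for the histone genes. Members were read by symbol, and 67 of 67 were placed through RefSeq. Genes with a mean of at least 1 were fitted with limma 3.58.1 in R 4.3.3, with a trend, on log2(value + 1), tested on simulated data, and adjusted by Benjamini-Hochberg over all genes tested (threshold 0.05). Fits against WT held all 5 libraries, and that between knockouts the 4 KO libraries. The members, gene lists and tests were chosen with earlier results of these data known. Named are Prdm9 and Psmc3ip, the highest gene of each class, all H1 genes, up to 10 per direction with the largest called change and no overlap, 5 per direction of smallest p between knockouts, up to 10 with the fullest SSDS peaks, and listed histone-related genes. Others, such as Hist2h3c2, Hist1h4k and Hist1h2ap, were picked after their values were seen. Peaks within 1 kb of a start, with an overlap of at least 1 base, and distinct fragments within 1 kb were counted with Python 3.11.15 and pandas 2.3.3. A planned list of 13 RNAs without a poly(A) tail matched 0 symbols and was not analysed here.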

Additional observations from a re-analysis of the deposited data

How the results depend on the processing

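With WT, the counts of histone genes called lower stayed within 1.5 times of the main counts in all but 1 alternative. A minimum mean of 5 left 15 genes, of which 7 fell and 3 rose in each knockout. Of all genes at that minimum 40.3% fell in each knockout, while 37.7% rose in Prdm9 KO and 38.2% in Hop2 KO. The counts of rising genes moved most. In Prdm9 KO they went to 11 with no filter, 18 with quantile normalization and 18 with rescaled columns. In Hop2 KO the last 2 gave 17 and 13. Over all genes 17.9% rose in Prdm9 KO with no filter, and the shares under the 2 scalings, which moved too, are given above. Leaving out each KO library in turn gave 5 to 6 rising and 16 falling genes in Prdm9 KO and 5 to 7 and 14 to 15 in Hop2 KO. Between the knockouts 0 genes were called in every alternative. The labels give replicate numbers but no shared litter or day. Deviations of same-numbered libraries correlated at 0.41 over 14358 genes, so libraries of the same number may share an effect. With 2 pairs and no such label this cannot be decided, and the main fit leaves the replicate number out. With the replicate block 0 histone genes and 8 of all genes were called, against 2 without it. At an unadjusted p under 0.05 by limma there were 1536 of all genes with the block and 445 without it. Of 58 results on single histone genes, 50 kept direction and side of the threshold in every alternative that could be fitted. The cause of the changes was not tested.

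Values that turned positive are given for quantile normalization, rescaled columns and, where it turned too, median-ratio scaling. In Prdm9 KO these were 0.25 and 0.16 for Slbp, 0.23 and 0.49 for Lsm10, 0.40 and 0.22 for Pcna, 0.20, 0.65 and 0.018 for Ccne2, 0.87 and 0.57 for H2afz, 0.58 and 0.39 for H3f3b, and 0.10 under quantile normalization alone for H3f3a. In Hop2 KO they were 0.71, 0.48 and 0.15 for Hist1h1a, 0.22 and 0.091 for Slbp, 0.34, 0.58 and 0.10 for Npat, 0.46, 0.62 and 0.091 for Lsm10, 0.32 and 0.11 for Pcna, 0.19 and 0.50 for Ccne2, 0.84, 0.58 and 0.040 for H2afz, 0.096 and 0.022 for H3f3a, and 0.59 and 0.49 for H3f3b. Leaving out 1 library in turn gave -0.047 to 0.052 for Chaf1b and -0.77 to 0.048 for H2afz in Prdm9 KO and -0.598 to 0.057 for Ccne2 in Hop2 KO, so their signs changed.

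For SSDS, 28 starts with a peak became 28 with a window of 500 bases, 29 with 2 kb, 25 with the peak centre in the window and 23 with the fuller peaks. Over gene spans with 1 kb on each side, added after the data were seen, 32 of 67 held a peak (all genes 30.6%). Summing near-identical copies, also added later, gave 5 rising and 14 falling of 38 in Prdm9 KO and 6 and 13 in Hop2 KO. Over all genes 34.6% rose and 39.4% fell there in Prdm9 KO, and 35% and 39.5% in Hop2 KO. With unknown depth and 1 WT library, small changes of genes near 1 rescaled TPM cannot be resolved.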
